A study of Arabidopsis thaliana with 6 samples.

Results

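This comparison set *Arabidopsis thaliana* seedlings with a stabilized form of a *Jatropha curcas* transcription factor against seedlings with its wildtype form. The chosen libraries were all those of 35S:MA-JcERFVII2 line 1 (MA-Line1) and 35S:MC-JcERFVII2 line 3 (MC-Line3), 2 of each, which are 4 of the 6 libraries of the series. All 28775 listed genes entered the comparison, and the 2 Col-0 libraries were left out of the fit and serve as levels only. Both lines are in the Col-0 ecotype and carry the *JcERFVII2* reading frame behind the constitutive CaMV 35S promoter. Whole seedlings grew in air on agar plates of 0.5x MS medium at 23 °C, with 16 h of light and 8 h of dark, and were collected when the light period ended. Their age is 10 d per the labels. A younger age stands in the paper. Each form was profiled in 1 homozygous line, so the form and the line, including its insertion site and transgene level, cannot be told apart. *JcERFVII2* itself was not among the genes counted, so the level of the transgene is not known from these values. The count table numbers the MC line as line 1 and the labels as line 3, and the columns were matched by construct.

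Group VII ethylene response factors (ERFVIIs) are transcription factors that switch on hypoxia-responsive genes. Their proteins begin with methionine and cysteine. After the methionine is removed, plant cysteine oxidases (PCOs) use oxygen to oxidise the exposed cysteine, and arginylation and the ligase PRT6 then lead to degradation, a route called the Cys N-degron pathway. In air the wildtype protein is therefore short-lived, while an alanine in place of the cysteine cannot be oxidised by PCOs.

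The tested difference was made in the forward primers used to clone the reading frame. They are shown because they carry the change that sets the forms apart, with the changed bases in capitals.
35S:MA-JcERFVII2: atgGCcggaggtgctattatttc
35S:MC-JcERFVII2: atgTGcggaggtgctattatttc
Both run 5′ to 3′ from the start codon over 23 bases. Counted from the A of the start codon, with the base of the MC form first, the substitutions are T4G and G5C. They turn codon 2 of the MC form, TGC for cysteine, into GCC for alanine.

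The libraries of the 2 lines held from 53084008 to 63891492 counted reads each. Levels are given as CPM, the counts scaled to the same total per library, on library sizes scaled by the trimmed mean of M values (TMM), and 3 counts, taken as the floor, correspond to 0.0460 to 0.0575 CPM. The SD over genes of the log2 difference between replicates was 0.30 within MA-Line1 and 0.32 within MC-Line3, while it was 0.56 for the mean difference between the lines. Counting error alone would give a chi-square per gene near 1 between replicates, and it was 5.79 for MA-Line1 and 10.2 for MC-Line3. The paper calls the 2 libraries of a line biological replicates. Neither it nor the labels say whether they came from separate plates. The p-values therefore measure the spread between these libraries, which may be partly technical. Seed storage genes were close to 0 in every library, and none of their 11 members could be tested.

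The 2 lines differed at a large part of the transcriptome, mostly by small amounts. After filtering out genes with low counts, 20967 were tested with the quasi-likelihood method of edgeR. Of these, 6047 (28.8%) had a p below 0.05 once adjusted after Benjamini and Hochberg, and such genes are referred to as called. Log2 fold changes are MA-Line1 over MC-Line3, given ± SE with n = 2 libraries per line, and the p-values given as edgeR adjusted p come from this test with this adjustment. Of all genes tested, 3236 (15.4%) were called higher and 2811 (13.4%) lower in MA-Line1. Called genes had a median absolute log2 fold change of 0.47 and the smallest was 0.15. A difference of more than 2-fold was found for 756 of the higher and 528 of the lower genes, and one of more than 4-fold for 208 higher and 148 lower genes. The libraries of the lines did not overlap at 6044 of the called genes, but this was also the case at 62.4% of all genes tested. The share called was 19.6% in the fifth of genes with the lowest mean level and 44.7% in the fifth with the highest.

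**Figure D1:**
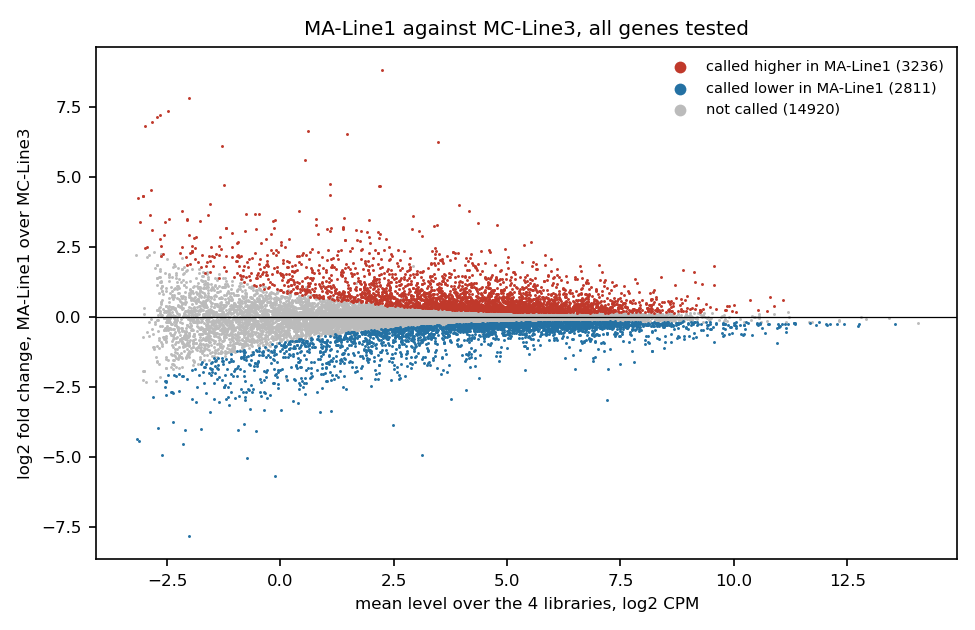
Mean level over the 4 libraries (log2 CPM, horizontal axis) and log2 fold change of MA-Line1 over MC-Line3 (vertical axis) of the 20967 genes tested, one point a gene. The 3236 genes called higher in MA-Line1 and the 2811 called lower lie on both sides of a band of 14920 genes not called, and this band narrows as the level rises.

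The Col-0 libraries give a level against which each line can be placed, without a test. They differed widely from each other at some genes, such as the clock gene *FKF1*, at 11.7 and 1.85 CPM. The sugar starvation gene *DIN10* had 1365 and 676 CPM, so the place of a Col-0 mean is not equally firm at all genes. Of the 756 genes more than 2-fold higher in MA-Line1, the Col-0 mean lay between the lines for 457, below both for 152 and above both for 147. Of the 528 genes more than 2-fold lower in MA-Line1, it lay between the lines for 266, above both for 237 and below both for 25. A higher value in MA-Line1 was therefore not always a value above Col-0. Below, list members are also counted by the place of the Col-0 mean, without the share over all genes tested. Such counts describe levels and are not read as particular to a list.

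Among genes with a mean of at least 5 CPM, the 12 with the largest increase included 3 tau glutathione transferases, which attach glutathione to reactive or foreign compounds. *GSTU3* had 22.5 and 21.2 CPM in MA-Line1, against 0.249 and 0.309 CPM in MC-Line3 (log2 fold change 6.28 ± 0.19, edgeR adjusted p = 1.9e-11), while Col-0 had 1.67 and 2.02 CPM. *GSTU11* had 20.1 and 19.6 CPM in MA-Line1, against 2.17 and 1.87 CPM in MC-Line3 (log2 fold change 3.30 ± 0.13, edgeR adjusted p = 1.2e-10). *GSTU12* had 14.5 and 12.5 CPM in MA-Line1, against 1.52 and 1.54 CPM in MC-Line3 (log2 fold change 3.15 ± 0.16, edgeR adjusted p = 1.3e-09). Both MA-Line1 libraries lay far above both MC-Line3 libraries at each of the 3 genes, and for *GSTU3* the Col-0 libraries lay between the lines.

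Transporters for scarce nutrients formed another part of these 12 genes. *NRT2.5*, a high-affinity nitrate transporter of nitrogen-starved plants, had 27.9 and 30.0 CPM in MA-Line1, against 1.98 and 1.63 CPM in MC-Line3 (log2 fold change 4.01 ± 0.13, edgeR adjusted p = 2.2e-11). *HAK5*, which takes up potassium when it is scarce, had 36.4 and 38.3 CPM in MA-Line1, against 4.2 and 3.14 CPM in MC-Line3 (log2 fold change 3.35 ± 0.11, edgeR adjusted p = 3.0e-11). MC-Line3 was near Col-0 at both genes, with Col-0 at 2.73 and 3.28 CPM for *NRT2.5* and 3.3 and 4.0 CPM for *HAK5*. *ABCG40*, an ATP-binding cassette transporter known to import abscisic acid, had 53.2 and 46.2 CPM in MA-Line1, against 4.64 and 5.43 CPM in MC-Line3 (log2 fold change 3.30 ± 0.11, edgeR adjusted p = 2.2e-11), and its Col-0 libraries lay between the lines.

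*AOX1D*, an alternative oxidase that passes electrons to oxygen without the cytochrome pathway, had 34.5 and 31.8 CPM in MA-Line1, against 2.82 and 1.98 CPM in MC-Line3 (log2 fold change 3.79 ± 0.13, edgeR adjusted p = 3.0e-11). The class III peroxidase gene *PRX52* had 15 and 12.9 CPM in MA-Line1, against 1.3 and 0.999 CPM in MC-Line3 (log2 fold change 3.60 ± 0.18, edgeR adjusted p = 7.9e-10). At both genes the lines were separated by far more than the difference between replicates. *PS2*, a pyrophosphatase gene of phosphate-starved plants, had 19.8 and 18.2 CPM in MA-Line1, against 2.09 and 1.89 CPM in MC-Line3 (log2 fold change 3.26 ± 0.13, edgeR adjusted p = 1.9e-10). Col-0 stood well above both lines here, at 136 and 212 CPM. The remaining 3 genes encode a C2H2 zinc finger protein (*AT3G46080*, log2 fold change 3.07), a TIR-NBS-LRR disease resistance protein (*AT4G11170*, 2.90) and a nucleoside triphosphate hydrolase (*AT3G28510*, 2.77).

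**Figure D2:**
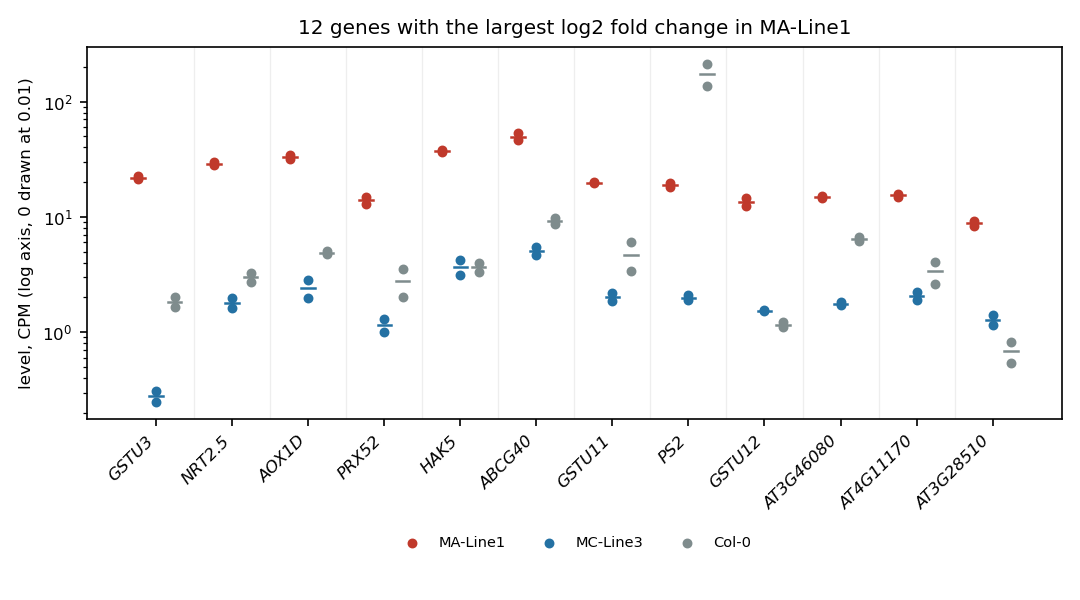
Level in CPM (log axis) of the 12 genes with the largest increase in MA-Line1 among those with a mean of at least 5 CPM, where points are libraries and short lines are means of 2 libraries. The MA-Line1 points lie above the MC-Line3 points at all 12 genes, and *PS2* has Col-0 at 136 and 212 CPM, above both lines.

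At the same level of at least 5 CPM, the 12 largest decreases in MA-Line1 held several genes of small secreted or membrane proteins. *AT2G05510*, a glycine-rich protein gene, had 33.3 and 33.9 CPM in MA-Line1, against 274 and 246 CPM in MC-Line3 (log2 fold change -2.95 ± 0.07, edgeR adjusted p = 1.3e-12). The defensin-like gene *AT3G59930* had 0.875 and 0.523 CPM in MA-Line1, against 11 and 9.82 CPM in MC-Line3 (log2 fold change -3.87 ± 0.21, edgeR adjusted p = 2.0e-09), with 22.2% of its 50-base words found elsewhere in the genome, so its reads may be shared with a copy. Both genes were well separated between the lines, with Col-0 in between. Another defensin-like gene, *AT1G13609*, had 2.03 and 2.34 CPM in MA-Line1, against 9.88 and 10.4 CPM in MC-Line3 (log2 fold change -2.22 ± 0.15, edgeR adjusted p = 2.7e-08), and Col-0 at 2.68 and 0.824 CPM was near MA-Line1.

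A pair of neighbouring genes of the lipid-transfer protein superfamily on chromosome 4 was also lower. *AIR1*, named for its induction by auxin in root cultures, had 4.08 and 5.77 CPM in MA-Line1, against 28.5 and 30.3 CPM in MC-Line3 (log2 fold change -2.59 ± 0.12, edgeR adjusted p = 4.8e-10). *AT4G12545* had 2.95 and 3.37 CPM in MA-Line1, against 22.7 and 25.2 CPM in MC-Line3 (log2 fold change -2.93 ± 0.12, edgeR adjusted p = 1.5e-10). MC-Line3 was close to or above Col-0 at both, with 11.4% of the 50-base words of *AIR1* and 11.9% of those of *AT4G12545* found elsewhere. The reads came from a kit that does not mark strand, so at both loci an overlapping antisense gene cannot be told apart, as at other genes described below as overlapping. Aquaporins, which carry water through membranes, gave a further pair. *PIP2;4* of the plasma membrane had 1.96 and 1.77 CPM in MA-Line1, against 10.05 and 7.88 CPM in MC-Line3 (log2 fold change -2.25 ± 0.18, edgeR adjusted p = 1.5e-07). *TIP2;3* of the vacuole membrane had 2.52 and 1.97 CPM in MA-Line1, against 11.7 and 8.7 CPM in MC-Line3 (log2 fold change -2.17 ± 0.18, edgeR adjusted p = 3.0e-07). Col-0 was higher than both lines for each, at 12.4 and 15 CPM for *PIP2;4* and 15.8 and 18.5 CPM for *TIP2;3*.

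The gene with the largest decrease among those with a mean of at least 5 CPM, *AT2G01422*, is annotated as other RNA on chromosome 2 between positions 183940 and 184734 of TAIR10.1. It had 0.568 and 0.523 CPM in MA-Line1, against 15.5 and 18.3 CPM in MC-Line3 (log2 fold change -4.95 ± 0.19, edgeR adjusted p = 1.0e-10), while Col-0 had 0 and 0.185 CPM. It was therefore high in MC-Line3 alone. Its neighbours were not called, with an edgeR adjusted p of 0.15 for *PIN4*, which lies 176 bases away, and 0.43 for *HB17*. The other genes among these 12 were *AT3G16670* (log2 fold change -2.17), *AT2G16005* (-2.12), *AT1G73120* (-2.08) and *AT1G77330* (-2.03), the last overlapping an antisense gene.

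**Figure D3:**
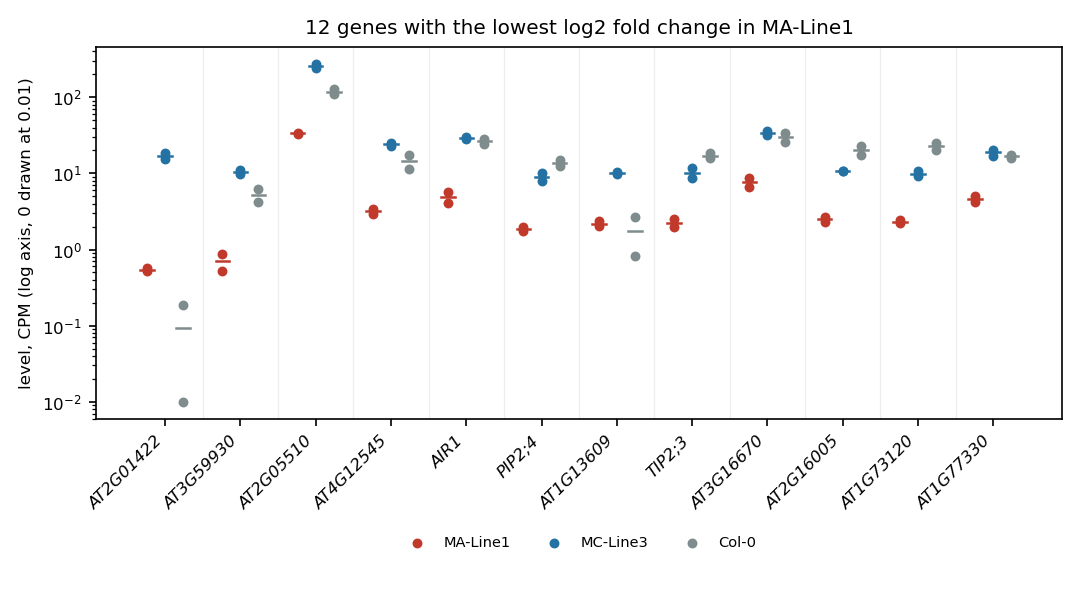
Level in CPM (log axis, 0 drawn at 0.01) of the 12 genes with the largest decrease in MA-Line1 among those with a mean of at least 5 CPM, where points are libraries and short lines are means of 2 libraries. The MA-Line1 points lie below the MC-Line3 points at all 12 genes, and *AT2G01422* is high in MC-Line3 alone, with 0.568 and 0.523 CPM in MA-Line1, against 15.5 and 18.3 CPM in MC-Line3.

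Of 40 gene lists with a tested member, 26 had more members called higher than lower in MA-Line1 and 12 more lower than higher. Some genes belong to several lists, so these counts are not independent. The background for reading each list is 15.4% called higher, 13.4% called lower and a median log2 fold change of -2.0e-05 over all genes tested. The lists of defence hormones, stress regulators, detoxification and mitochondrial stress had medians above 0, and those of root cell types and photosynthesis had medians below 0.

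**Figure D4:**
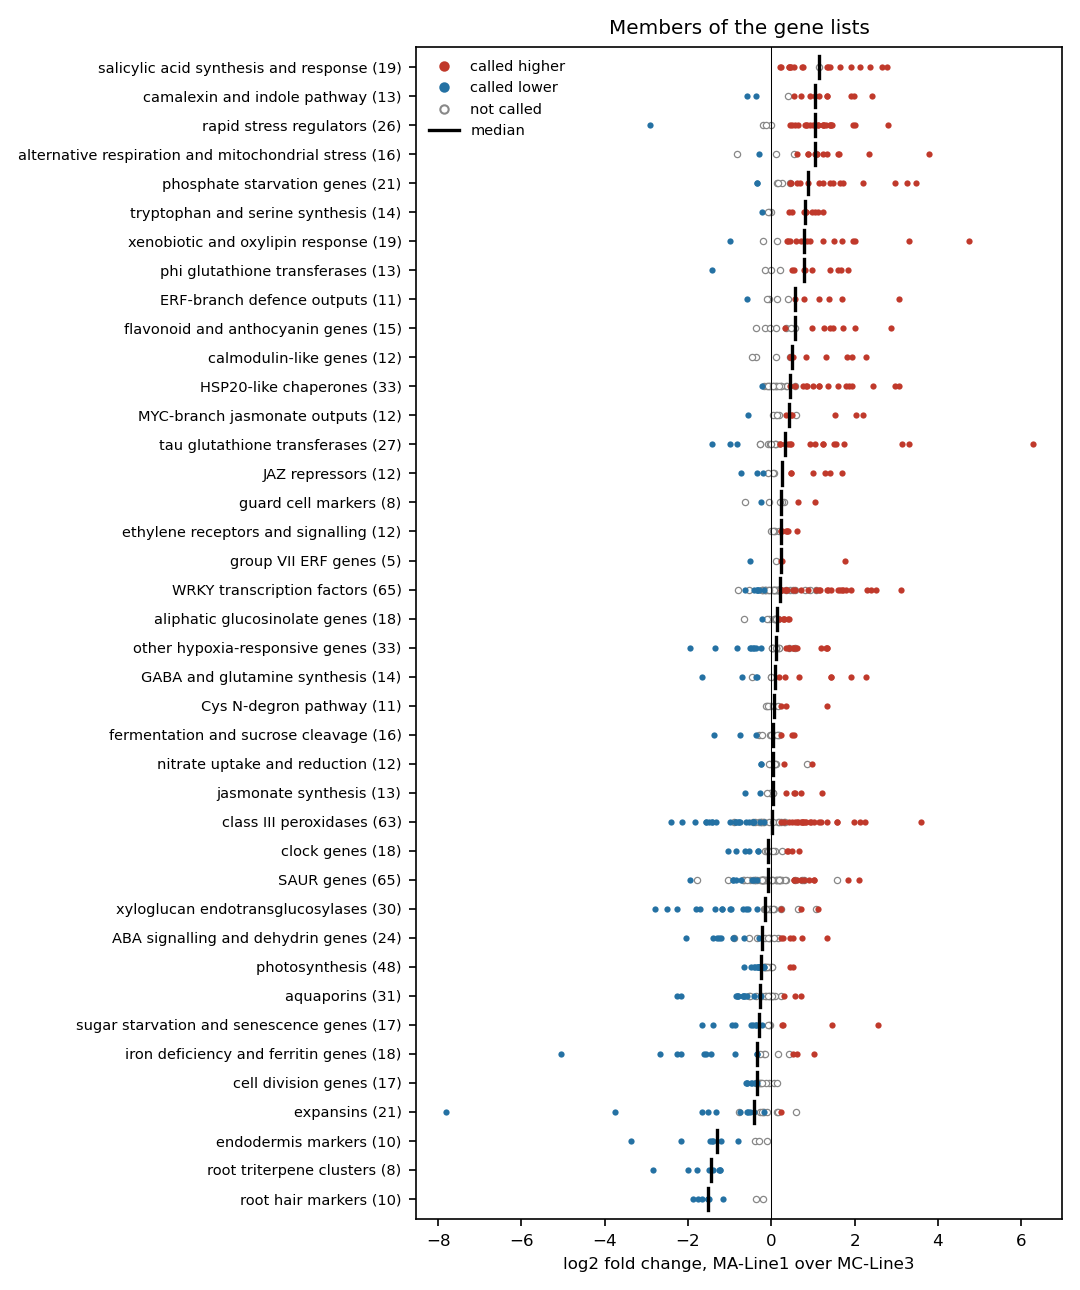
Log2 fold change of MA-Line1 over MC-Line3 of each tested member of 40 gene lists, with the number tested in brackets and the median as a bar. Medians run from 1.15 for salicylic acid genes to -1.52 for root hair markers, and the point furthest left, *EXPB2*, had no counts in MA-Line1, so that its fitted value is not a measured size.

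Genes of the oxygen-sensing machinery differed little apart from 1 oxidase. Of 11 Cys N-degron pathway genes, 3 were called higher and 0 lower, with a median of 0.05. *PCO1*, a hypoxia-inducible cysteine oxidase, had 47.1 and 48.1 CPM in MA-Line1, against 19 and 18.7 CPM in MC-Line3 (log2 fold change 1.34 ± 0.07, edgeR adjusted p = 1.6e-09), and Col-0 had 5.31 and 6.05 CPM. *PCO2* had 18.4 and 16.5 CPM in MA-Line1, against 13.9 and 13.7 CPM in MC-Line3, and this call was lost without MA-Line1 replicate 1 (edgeR adjusted p = 0.21). For the other oxidase genes, *PCO3*, *PCO4* and *PCO5*, the log2 fold changes were -0.04, -0.10 and -0.12 with edgeR adjusted p of 0.83, 0.55 and 0.29. *PRT6* had a log2 fold change of 0.23, and its call was lost when either MA-Line1 library was left out (edgeR adjusted p = 0.15 without replicate 1 and 0.061 without replicate 2).

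Of the 5 endogenous ERFVII genes, 3 were called higher and 1 lower (median 0.23). The hypoxia-inducible *HRE2* had 4.57 and 5.08 CPM in MA-Line1, against 1.67 and 1.18 CPM in MC-Line3 (log2 fold change 1.76 ± 0.21, edgeR adjusted p = 1.2e-05) and *HRE1*, which overlaps an antisense gene, had 6.57 and 6.65 CPM in MA-Line1, against 9.76 and 9.11 CPM in MC-Line3 (log2 fold change -0.51 ± 0.12, edgeR adjusted p = 0.0038). The pair thus differed in opposite directions. The constitutively expressed *RAP2.3*, *RAP2.2* and *RAP2.12* had log2 fold changes of 0.26, 0.23 and 0.11, and *RAP2.12* was not called. The calls of *RAP2.3* and *RAP2.2* were lost without MA-Line1 replicate 2 (edgeR adjusted p = 0.057 and 0.099), and 22.3% of the 50-base words of *RAP2.12* occur elsewhere in the genome.

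Hypoxia-responsive genes did not differ in 1 direction. Of 33 tested members outside the ERFVII genes, 11 were called higher and 9 lower, with a median of 0.12, and the Col-0 mean lay below both lines for 20. *LBD41*, a transcription regulator of the hypoxia response, had 152 and 159 CPM in MA-Line1, against 63.6 and 62 CPM in MC-Line3 (log2 fold change 1.31 ± 0.06, edgeR adjusted p = 3.3e-10). *HB1*, a hemoglobin, had 55.3 and 57.7 CPM in MA-Line1, against 46.9 and 37.7 CPM in MC-Line3 (log2 fold change 0.42 ± 0.08, edgeR adjusted p = 0.0014). In contrast, the stearoyl desaturase gene *AAD6* had 43.4 and 42.9 CPM in MA-Line1, against 60.6 and 55.9 CPM in MC-Line3 (log2 fold change -0.43 ± 0.07, edgeR adjusted p = 1.1e-04). The levels of *LBD41* and *HB1* were thus higher in MA-Line1 and that of *AAD6* lower, and all 3 were lowest in Col-0.

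Fermentation genes were not higher as a group, with 3 of 16 called higher, 3 lower and a median of 0.05. *PDC1*, pyruvate decarboxylase, had 7.43 and 6.92 CPM in MA-Line1, against 11.8 and 12.3 CPM in MC-Line3 (log2 fold change -0.74 ± 0.11, edgeR adjusted p = 9.5e-05), and Col-0 had 3.57 and 3.58 CPM. *SUS4*, a sucrose synthase, had 6.23 and 5.52 CPM in MA-Line1, against 16.1 and 14.8 CPM in MC-Line3 (log2 fold change -1.39 ± 0.11, edgeR adjusted p = 1.8e-07), and Col-0 at 6.36 and 7.5 CPM was near MA-Line1. These genes of sugar use under low oxygen were both lower in the line with the stabilized form. The 3 members called higher were another sucrose synthase gene, *SUS3*, and *ALAAT1* and *ALAAT2*, with log2 fold changes of 0.51, 0.23 and 0.55. *AT2G17850*, a rhodanese gene of the hypoxia list, had 1.27 and 1.28 CPM in MA-Line1, against 5.51 and 4.39 CPM in MC-Line3 (log2 fold change -1.95 ± 0.21, edgeR adjusted p = 4.4e-06), with Col-0 lower than both lines.

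Salicylic acid is the hormone of defence against biotrophic pathogens, and its genes were higher in MA-Line1 almost throughout. Of 19 tested members, 18 were called higher and 0 lower (median 1.15). The groups did not overlap at any of the 19, against 62.4% without overlap among all genes tested. *PR1*, a secreted marker of the response, had 82.8 and 76.3 CPM in MA-Line1, against 14.3 and 10.8 CPM in MC-Line3 (log2 fold change 2.67 ± 0.10, edgeR adjusted p = 5.8e-11). *PBS3*, which conjugates isochorismate to glutamate in salicylic acid synthesis, had 10.8 and 11.2 CPM in MA-Line1, against 2.26 and 1.98 CPM in MC-Line3 (log2 fold change 2.38 ± 0.15, edgeR adjusted p = 1.2e-08). *FMO1*, which makes the systemic signal N-hydroxypipecolic acid, had 5.92 and 5.37 CPM in MA-Line1, against 0.882 and 0.781 CPM in MC-Line3 (log2 fold change 2.77 ± 0.22, edgeR adjusted p = 1.4e-07). The 3 genes span signal, synthesis and output, and at each the Col-0 libraries lay between the lines, as they did on average for 13 of the 19 genes. The regulator *CBP60G* had a log2 fold change of 1.37, *SARD1* of 1.4 and *WRKY70* of 1.64, while the synthesis gene *ICS1* had 0.47. *ALD1*, the 1 member not called, had 0.675 and 0.649 CPM in MA-Line1, against 0.211 and 0.381 CPM in MC-Line3.

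Camalexin is the indolic antimicrobial compound of *Arabidopsis*. Of 13 genes of this and related indole pathways, 10 were called higher and 2 lower (median 1.06), and the Col-0 mean lay below both lines for 7. The 2 called lower were *CYP79B3* and *CYP82C2*, with log2 fold changes of -0.59 and -0.37, and *CYP71A13* was not called (0.41). *PAD3*, which makes camalexin in the last step, had 51.4 and 52.4 CPM in MA-Line1, against 10.7 and 8.68 CPM in MC-Line3 (log2 fold change 2.42 ± 0.09, edgeR adjusted p = 6.7e-11). *CYP71A12*, which acts earlier on indole acetaldoxime, had 86.3 and 83.5 CPM in MA-Line1, against 38.2 and 29.2 CPM in MC-Line3 (log2 fold change 1.33 ± 0.09, edgeR adjusted p = 3.1e-08). Col-0 was near MC-Line3 for *PAD3*, at 9.77 and 10.4 CPM, and below both lines for *CYP71A12*, at 12.1 and 8.86 CPM. The flavin-dependent berberine-bridge family genes *AT1G26380* and *AT1G26390* had log2 fold changes of 1.91 and 1.99. Genes of tryptophan and serine synthesis, which supply this pathway, were higher too, at 10 of 14 with 1 lower (median 0.80). *TSA1*, a tryptophan synthase subunit, had 266 and 255 CPM in MA-Line1, against 123 and 117 CPM in MC-Line3 (log2 fold change 1.12 ± 0.06, edgeR adjusted p = 1.4e-09), and *PGDH2* of the phosphorylated serine pathway, which overlaps antisense genes, had 114 and 112 CPM in MA-Line1, against 48.5 and 46.3 CPM in MC-Line3 (log2 fold change 1.25 ± 0.06, edgeR adjusted p = 6.2e-10).

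The jasmonate and ethylene branches were more mixed. Of 11 outputs of the ERF branch, 6 were called higher and 1 lower (median 0.57). *ERF1*, a transcription factor that joins both hormones, had 5.76 and 6.6 CPM in MA-Line1, against 0.595 and 0.853 CPM in MC-Line3 (log2 fold change 3.08 ± 0.23, edgeR adjusted p = 8.3e-08). The plant defensin gene *PDF1.2C* had 9.07 and 9.9 CPM in MA-Line1, against 2.92 and 2.94 CPM in MC-Line3 (log2 fold change 1.69 ± 0.14, edgeR adjusted p = 3.1e-07) and *PDF1.2A* had 9.32 and 11.2 CPM in MA-Line1, against 5.28 and 6.59 CPM in MC-Line3 (log2 fold change 0.78 ± 0.14, edgeR adjusted p = 5.4e-04). *PDF1.3* was not called, at 5.72 and 6.98 CPM in MA-Line1, against 6.31 and 5.17 CPM in MC-Line3, and *PDF1.2B* had 2.82 and 2.36 CPM in MA-Line1, against 3.99 and 3.78 CPM in MC-Line3, a call lost without MA-Line1 replicate 2 (edgeR adjusted p = 0.19) or MC-Line3 replicate 1 (0.071). The defensin genes therefore did not share a direction, although all 4 were lowest in Col-0.

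Of 12 *JAZ* repressors of jasmonate signalling, 6 were called higher and 3 lower (median 0.27), and the Col-0 mean lay above both lines for 11. Without MA-Line1 replicate 2, 0 were called lower. *JAZ1* had 71 and 71.8 CPM in MA-Line1, against 26.3 and 27.8 CPM in MC-Line3 (log2 fold change 1.4 ± 0.07, edgeR adjusted p = 4.8e-10), and Col-0 had 88.4 and 114 CPM. *CYP94C1*, which oxidises the active hormone, had 18.3 and 18.6 CPM in MA-Line1, against 4.58 and 4.47 CPM in MC-Line3 (log2 fold change 2.03 ± 0.11, edgeR adjusted p = 2.2e-09), whereas the vegetative storage protein gene *VSP2* had 56.6 and 65.6 CPM in MA-Line1, against 92.4 and 88.1 CPM in MC-Line3 (log2 fold change -0.56 ± 0.07, edgeR adjusted p = 1.8e-05). Outputs of the MYC branch thus included differences in both directions, with 6 of 12 called higher and 1 lower (median 0.41). Jasmonate synthesis genes were higher in 5 of 13 and lower in 2 (median 0.04). Of 12 ethylene receptors and signalling genes, 7 were called higher and 0 lower, all by small amounts (median 0.24), with 4 higher without MA-Line1 replicate 2. The receptor gene *ETR2* led with 53.7 and 52.8 CPM in MA-Line1, against 34.4 and 35.2 CPM in MC-Line3 (log2 fold change 0.61 ± 0.06, edgeR adjusted p = 2.7e-06).

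Genes that plants induce against foreign compounds and oxidised lipids were higher in 16 of 19 and lower in 1 (median 0.78). *AT2G04070*, which encodes an efflux transporter of the MATE family, had 4.11 and 4.07 CPM in MA-Line1, against 0.134 and 0.163 CPM in MC-Line3 (log2 fold change 4.76 ± 0.34, edgeR adjusted p = 5.3e-08). The cytochrome P450 gene *CYP81D8* had 77.5 and 73.1 CPM in MA-Line1, against 20.7 and 17.9 CPM in MC-Line3 (log2 fold change 1.97 ± 0.08, edgeR adjusted p = 1.1e-10). Both were separated by far more than the replicate difference, and for *AT2G04070* Col-0 at 0.155 and 0.235 CPM was as low as MC-Line3. Glutathione transferases were called higher in 16 of 27 tau members (3 lower, median 0.33) and 9 of 13 phi members (1 lower, median 0.78). The tau list also holds *GSTT1*, a member of the theta class, which was not called. *GSTF2*, which overlaps an antisense gene, had 1149 and 1204 CPM in MA-Line1, against 347 and 308 CPM in MC-Line3 (log2 fold change 1.84 ± 0.07, edgeR adjusted p = 6.7e-11), and *GSTF6* had 813 and 861 CPM in MA-Line1, against 292 and 262 CPM in MC-Line3 (log2 fold change 1.6 ± 0.07, edgeR adjusted p = 1.9e-10). *GSTF6* and *GSTF7* share 10.3% and 10.0% of their 50-base words with other places in the genome. Genes annotated as peroxidase family, mostly secreted class III peroxidases, differed in both directions, with 25 of 63 higher, 22 lower and a median of 0.01. The higher ones include *DOX1*, an alpha-dioxygenase gene outside class III.

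The promoters of 3 of these genes are shown because TGACG, the core to which TGA factors bind in detoxification and salicylic acid responses, occurs in each. They are the 250 bases before the annotated start, 5′ to 3′ on the gene's strand, from the TAIR10.1 genome as given by RefSeq, and capitals mark TGACG, the W-box core TTGAC bound by WRKY factors, and GNATATNC, the P1BS element of phosphate starvation, on either strand. TGACG and TTGAC can overlap. The regions are chr2:12629641-12629890 (minus strand) for *GSTU3*, chr1:5338327-5338576 (minus strand) for *ABCG40* and chr2:1355884-1356133 (minus strand) for *AT2G04070*.
GSTU3: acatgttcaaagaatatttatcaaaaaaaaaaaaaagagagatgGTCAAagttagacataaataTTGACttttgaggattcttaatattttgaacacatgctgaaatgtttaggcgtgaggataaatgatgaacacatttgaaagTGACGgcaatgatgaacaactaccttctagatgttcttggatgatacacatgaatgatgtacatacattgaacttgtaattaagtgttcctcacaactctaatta
ABCG40: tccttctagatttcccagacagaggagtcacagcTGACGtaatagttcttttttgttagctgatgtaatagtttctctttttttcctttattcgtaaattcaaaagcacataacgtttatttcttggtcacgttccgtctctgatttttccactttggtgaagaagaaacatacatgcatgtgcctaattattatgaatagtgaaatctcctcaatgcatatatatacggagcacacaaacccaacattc
AT2G04070: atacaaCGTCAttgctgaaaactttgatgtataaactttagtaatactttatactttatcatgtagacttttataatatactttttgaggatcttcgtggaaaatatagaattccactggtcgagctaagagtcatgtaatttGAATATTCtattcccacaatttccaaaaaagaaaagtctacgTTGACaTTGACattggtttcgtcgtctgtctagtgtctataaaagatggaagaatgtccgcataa
TGACG or its reverse complement lay 105 bases before the start of *GSTU3*, 216 before that of *ABCG40* and 244 before that of *AT2G04070*. It occurred in 19.2% of the 20824 promoters of genes tested that could be read, in 27.0% of those more than 2-fold higher in MA-Line1 and in 15.7% of those more than 2-fold lower. In the list of genes induced by foreign compounds it occurred in 63.2% of 19 promoters, but in 21.1% of 19 in the salicylic acid list. Among glutathione transferases it occurred in 44.4% of 27 promoters of the tau list, *GSTT1* included, and in 23.1% of 13 phi promoters. TTGAC occurred in 45.3% of all promoters, in 61.9% of those of the higher and in 47.5% of those of the lower genes. The GCC-box GCCGCC, to which ERF proteins bind, occurred in 2.0% of all promoters, in 4.1% of those of the higher and in 1.1% of those of the lower genes. These are counts of letters in a window and do not show binding.

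Genes of alternative respiration and mitochondrial stress were higher in 11 of 16 and lower in 1 (median 1.06). *AOX1A*, the main alternative oxidase gene, had 104.4 and 97.5 CPM in MA-Line1, against 50.1 and 48.3 CPM in MC-Line3. *OM66*, an outer mitochondrial membrane ATPase gene, had 40.3 and 42 CPM in MA-Line1, against 7.31 and 8.86 CPM in MC-Line3 (log2 fold change 2.34 ± 0.09, edgeR adjusted p = 1.2e-10), and *UGT74E2*, a glucosyltransferase gene for an auxin precursor, had 43.7 and 43.6 CPM in MA-Line1, against 13.8 and 14.4 CPM in MC-Line3 (log2 fold change 1.63 ± 0.07, edgeR adjusted p = 4.0e-10). Both are used as markers of mitochondrial stress, and Col-0 differed between them, lying at 28.8 and 35 CPM for *OM66*, nearer MA-Line1, and at 12.2 and 6.64 CPM for *UGT74E2*, below MC-Line3. Small heat shock proteins of the HSP20 type, chaperones of unfolded proteins, were higher in 16 of 33 and lower in 1 (median 0.45). *HSP17.6A* had 17 and 18.8 CPM in MA-Line1, against 2.95 and 3.56 CPM in MC-Line3 (log2 fold change 2.45 ± 0.13, edgeR adjusted p = 1.6e-09) and *HSP17.4*, which overlaps antisense genes, had 30.4 and 29.3 CPM in MA-Line1, against 7.86 and 8.42 CPM in MC-Line3 (log2 fold change 1.87 ± 0.09, edgeR adjusted p = 5.9e-10).

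Genes of nitrogen assimilation differed in opposite directions, with 7 of 14 genes of GABA and glutamine synthesis higher and 4 lower (median 0.10). *GSR1*, a cytosolic glutamine synthetase gene, had 482 and 497 CPM in MA-Line1, against 169.9 and 192 CPM in MC-Line3 (log2 fold change 1.43 ± 0.07, edgeR adjusted p = 3.8e-10). *GAD4*, which makes GABA from glutamate and overlaps an antisense gene, had 18.9 and 16 CPM in MA-Line1, against 3.8 and 3.47 CPM in MC-Line3 (log2 fold change 2.27 ± 0.13, edgeR adjusted p = 4.3e-09). *ASN1*, an asparagine synthetase gene induced by darkness and low sugar, had 85.6 and 86.4 CPM in MA-Line1, against 289.8 and 258 CPM in MC-Line3 (log2 fold change -1.67 ± 0.06, edgeR adjusted p = 1.0e-10). MC-Line3 was close to Col-0 for all 3 genes, while MA-Line1 was apart, above for *GSR1* and *GAD4* and below for *ASN1*, which overlaps an antisense gene. The nitrate transporter gene *NRT1.1* had 210.0 and 207 CPM in MA-Line1, against 112 and 101 CPM in MC-Line3 (log2 fold change 0.97 ± 0.06, edgeR adjusted p = 1.2e-08), while a list of nitrate genes, which does not hold *NRT2.5*, had 2 of 12 higher and 2 lower (median 0.05) and 0 lower without MA-Line1 replicate 1.

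Phosphate starvation genes were higher in 15 of 21 and lower in 2 (median 0.88), but the Col-0 mean lay above both lines for all 21. *MGD3*, which makes galactolipids that replace phospholipids, had 7.04 and 7.21 CPM in MA-Line1, against 0.767 and 0.508 CPM in MC-Line3 (log2 fold change 3.48 ± 0.22, edgeR adjusted p = 1.5e-08), and Col-0 had 42.5 and 64.5 CPM. *SPX3*, a gene of phosphate sensing, had 3.32 and 2.96 CPM in MA-Line1, against 0.499 and 0.309 CPM in MC-Line3 (log2 fold change 2.97 ± 0.31, edgeR adjusted p = 2.5e-06), and Col-0 had 27.5 and 45 CPM. For both genes the order was Col-0, MA-Line1 and MC-Line3 from highest to lowest, with gaps far wider than the replicate differences of the lines. The phosphate transporter gene *PHT1-1*, one of a closely related family, and the noncoding RNA gene *AT4* were the 2 called lower, with log2 fold changes of -0.35 and -0.34. The promoter of *SPX3* is shown because it holds P1BS elements.
SPX3: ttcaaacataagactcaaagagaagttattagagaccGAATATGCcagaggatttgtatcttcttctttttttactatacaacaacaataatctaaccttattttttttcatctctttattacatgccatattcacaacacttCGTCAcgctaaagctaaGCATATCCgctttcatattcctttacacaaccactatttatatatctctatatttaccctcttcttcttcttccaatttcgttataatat
This is chr2:18606160-18606409 of TAIR10.1 (plus strand), marked as above. GNATATNC lay 213 and 90 bases before the start. It occurred in 28.6% of 21 promoters of phosphate starvation genes and in 5.5% of all promoters.

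Regulators that respond within minutes to wounding, touch or cold gave the same order of genotypes. Of 26 tested, 22 were called higher in MA-Line1 and 1 lower (median 1.06), and the Col-0 mean lay above both lines for 22. *ZAT10*, a zinc finger repressor, had 87.4 and 88.9 CPM in MA-Line1, against 32 and 32 CPM in MC-Line3 (log2 fold change 1.46 ± 0.06, edgeR adjusted p = 2.2e-10), and Col-0 had 206 and 234 CPM. *ERF11* had 19.2 and 18.9 CPM in MA-Line1, against 4.74 and 4.78 CPM in MC-Line3 (log2 fold change 2.00 ± 0.11, edgeR adjusted p = 2.0e-09), and Col-0 had 40.5 and 51.6 CPM. Both were highest in Col-0 and lowest in MC-Line3. *RRTF1*, which overlaps antisense genes, had 2.47 and 1.53 CPM in MA-Line1, against 0.364 and 0.218 CPM in MC-Line3 (log2 fold change 2.81 ± 0.41, edgeR adjusted p = 8.7e-05), and Col-0 had 39.4 and 45.5 CPM. Calmodulin-like genes, of calcium signalling, were higher in 8 of 12 and lower in 0 (median 0.49). WRKY transcription factors were higher in 25 of 65 and lower in 7 (median 0.22), led among those with a mean of at least 1 CPM by *ABO3* (log2 fold change 3.11), *WRKY51* (2.39) and *WRKY75* (2.31). *WRKY75* had 25.5 and 24.9 CPM in MA-Line1, against 5.95 and 4.27 CPM in MC-Line3, and Col-0 at 7.08 and 7.04 CPM was near MC-Line3. The number of WRKY genes called lower was 3 with each MA-Line1 library left out in turn and 4 without MC-Line3 replicate 1.

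Flavonoid and anthocyanin genes were higher in 8 of 15 and lower in 0 (median 0.57). *MYB90*, a regulator of anthocyanin synthesis, had 6.68 and 7.05 CPM in MA-Line1, against 1.23 and 0.654 CPM in MC-Line3 (log2 fold change 2.87 ± 0.23, edgeR adjusted p = 1.3e-07). *LDOX*, an enzyme of the pathway, had 10.3 and 11.2 CPM in MA-Line1, against 4.14 and 3.49 CPM in MC-Line3 (log2 fold change 1.49 ± 0.14, edgeR adjusted p = 7.1e-07). Both MA-Line1 libraries exceeded all MC-Line3 and Col-0 libraries at both genes. Aliphatic glucosinolate genes, which make defence compounds from methionine, were higher in 6 of 18 and lower in 1, with a median of 0.14, and 11 were higher without MC-Line3 replicate 1.

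Genes of root cell types were lower in MA-Line1. Root hair markers were lower in 8 of 10 and higher in 0 (median -1.52). The groups did not overlap at any of the 10, against 62.4% without overlap among all genes tested. *PRP3*, a root hair cell wall protein gene, had 2.19 and 2.72 CPM in MA-Line1, against 8.59 and 9.22 CPM in MC-Line3 (log2 fold change -1.87 ± 0.16, edgeR adjusted p = 2.5e-07). *RSL4*, the transcription factor that sets root hair growth, had 0.399 and 0.234 CPM in MA-Line1, against 1.04 and 1.14 CPM in MC-Line3. Both MC-Line3 libraries were near Col-0. The summed level of the 10 markers was 25.5 and 24.9 CPM in MA-Line1, against 49.5 and 53.7 CPM in MC-Line3 and 49.5 and 62.8 CPM in Col-0. In whole seedlings, fewer cells of a type and less RNA per cell cannot be told apart.

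Markers of the endodermis, the inner root layer sealed by the Casparian strip, were lower in 7 of 10 and higher in 0 (median -1.30). *CASP4*, a scaffold protein gene of the strip, had 0.476 and 0.523 CPM in MA-Line1, against 2.38 and 2.11 CPM in MC-Line3 (log2 fold change -2.17 ± 0.30, edgeR adjusted p = 5.3e-05). *PER64*, a peroxidase gene of strip lignin that overlaps an antisense gene, had 3.82 and 4.15 CPM in MA-Line1, against 12 and 9.51 CPM in MC-Line3 (log2 fold change -1.43 ± 0.15, edgeR adjusted p = 2.2e-06). MC-Line3 was near or somewhat below Col-0 in both. *SCR*, the transcription factor that specifies the layer, was not called, at 28.5 and 32.6 CPM in MA-Line1, against 32.8 and 33.0 CPM in MC-Line3. The genes of the root triterpene clusters, which make thalianol and marneral, were called lower in 8 of 8 (median -1.44), and their summed level was 52.3 and 54.5 CPM in MA-Line1, against 148.2 and 121.5 CPM in MC-Line3. *THAS1*, thalianol synthase, had 16 and 15.7 CPM in MA-Line1, against 46.1 and 37.5 CPM in MC-Line3 (log2 fold change -1.39 ± 0.09, edgeR adjusted p = 2.5e-08).

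Gene families of water flow and cell wall loosening also had more members lower than higher. Aquaporins were lower in 14 of 31 and higher in 3 (median -0.27). Their list also holds *BRX*, which is not an aquaporin gene and was not called. Expansins were lower in 11 of 21 and higher in 1 (median -0.42), and xyloglucan endotransglucosylases lower in 14 of 30 and higher in 3 (median -0.16). *EXPA7*, a root hair expansin gene that overlaps an antisense gene, had 1.01 and 1.57 CPM in MA-Line1, against 3.86 and 3.45 CPM in MC-Line3 (log2 fold change -1.52 ± 0.24, edgeR adjusted p = 1.5e-04). *XTH14*, which remodels xyloglucan, had 4.73 and 4.04 CPM in MA-Line1, against 14.1 and 14.6 CPM in MC-Line3 (log2 fold change -1.70 ± 0.12, edgeR adjusted p = 4.3e-08). Both were lower in MA-Line1 than in MC-Line3 and Col-0. The levels of root cell markers moved with these families, but *EXPA7* and *EXPA18* are in both the root hair and the expansin list. The part of root cell markers in the differences was not tested. Guard cell markers, for a cell type of the shoot, were higher in 2 of 8 and lower in 1, with a summed level of 76.0 and 74.9 CPM in MA-Line1, against 67.4 and 66.6 CPM in MC-Line3, and 4 were called higher without MC-Line3 replicate 2.

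**Figure D5:**
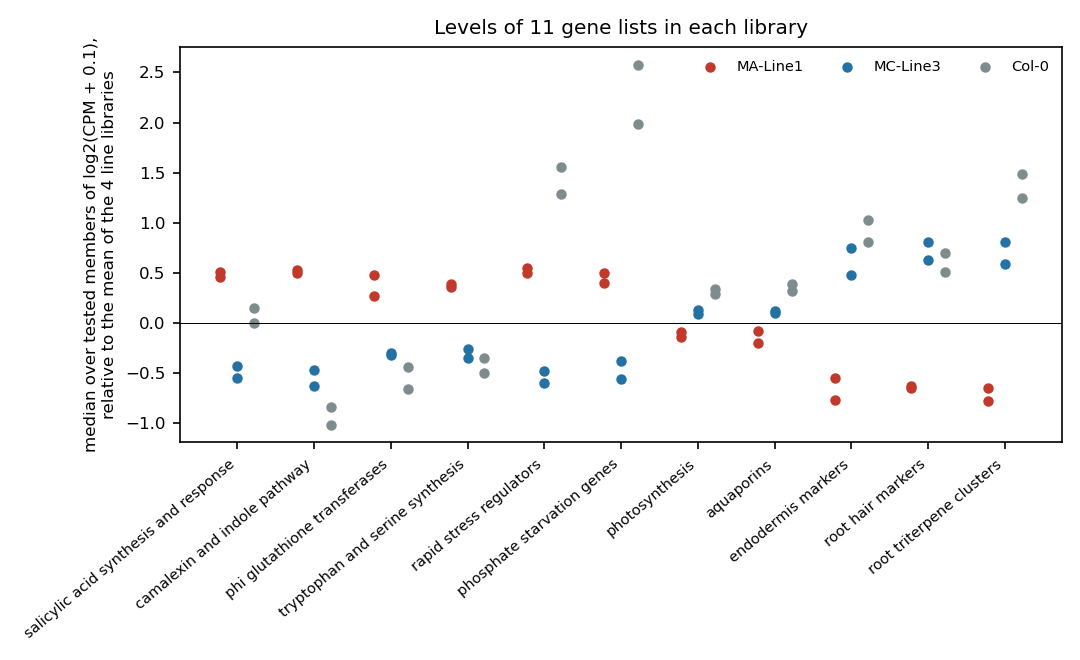
Median over tested members of log2(CPM + 0.1), relative to the mean of the 4 line libraries, for 11 gene lists in each library. The libraries of MA-Line1 and MC-Line3 do not overlap at any of the 11 lists, but the same holds for most lists with a tested member. Col-0 lies above both lines for phosphate starvation genes (1.98 and 2.57) and rapid stress regulators (1.29 and 1.56) and near MC-Line3 for root hair markers (0.51 and 0.70).

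Iron deficiency and ferritin genes, taken as 1 list, were lower in 10 of 18 and higher in 3 (median -0.35). *IRT1*, the iron transporter of the root surface, had 0.399 and 0.559 CPM in MA-Line1, against 3.07 and 3.01 CPM in MC-Line3 (log2 fold change -2.68 ± 0.29, edgeR adjusted p = 3.5e-06). The regulator gene *BHLH39* had 1.04 and 1.48 CPM in MA-Line1, against 5.6 and 5.66 CPM in MC-Line3 (log2 fold change -2.18 ± 0.20, edgeR adjusted p = 9.2e-07). The Col-0 replicates differed widely here, at 6.16 and 1.34 CPM for *IRT1* and 2.21 and 1.24 CPM for *BHLH39*, so they give no clear level. The 3 members called higher were *AT3G13610*, which is not a ferritin gene, and the ferritin genes *FER2* and *FER3*, whose proteins store iron. *AT3G13610* had the largest log2 fold change of the 3, at 1.02, with 38.2 and 42.9 CPM in MA-Line1, against 24.2 and 15.9 CPM in MC-Line3. *FER2* and *FER3* had log2 fold changes of 0.63 and 0.53. *FER1* was listed at 0 in all 6 libraries.

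Photosynthesis genes were lower by small amounts. In the fifth of genes with the highest mean level, 24.2% were called lower, against 13.4% of all genes tested. Of 48 nuclear photosynthesis genes, 35 were called lower and 2 higher (median -0.24), and the Col-0 mean lay above both lines for 45. Their summed level was 136443 and 143110 CPM in MA-Line1, against 158425 and 162977 CPM in MC-Line3 and 193456 and 189402 CPM in Col-0. *LHB1B1*, a light-harvesting protein gene with 13.7% of its 50-base words elsewhere in the genome, had 1013 and 1094 CPM in MA-Line1, against 1598 and 1723 CPM in MC-Line3 (log2 fold change -0.66 ± 0.07, edgeR adjusted p = 2.2e-06), whereas *LHCB4.3* had 55 and 57.5 CPM in MA-Line1, against 37.8 and 40.9 CPM in MC-Line3 (log2 fold change 0.51 ± 0.07, edgeR adjusted p = 2.4e-05). The number called lower fell to 14 without MA-Line1 replicate 1, 22 without MA-Line1 replicate 2 and 16 with all 6 libraries in the fit.

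Cell division genes were lower in 8 of 17 and higher in 0 (median -0.35). *AUR1*, an Aurora kinase gene of mitosis that overlaps an antisense gene, had 7.15 and 8.35 CPM in MA-Line1, against 11.8 and 11.8 CPM in MC-Line3 (log2 fold change -0.61 ± 0.11, edgeR adjusted p = 7.5e-04), and Col-0 at 7.21 and 6.0 CPM was near MA-Line1. Sugar starvation and senescence genes were lower in 10 of 17 and higher in 4 (median -0.30). *SEN1*, induced by darkness, had 70.1 and 63.2 CPM in MA-Line1, against 182 and 173 CPM in MC-Line3 (log2 fold change -1.41 ± 0.06, edgeR adjusted p = 3.8e-10), but *SAG13*, a senescence-associated dehydrogenase gene, had 72.5 and 68.2 CPM in MA-Line1, against 12.1 and 11.7 CPM in MC-Line3 (log2 fold change 2.56 ± 0.07, edgeR adjusted p = 1.9e-11). Genes with the same textbook label of senescence therefore differed in opposite directions. Clock genes were higher in 4 of 18 and lower in 6 (median -0.08), and the number lower was 2 with all 6 libraries in the fit. *LHY*, a morning gene, had 39.7 and 38 CPM in MA-Line1, against 23.9 and 25.5 CPM in MC-Line3 (log2 fold change 0.66 ± 0.07, edgeR adjusted p = 4.4e-06), and *ELF4*, an evening gene, had 2.26 and 1.82 CPM in MA-Line1, against 4.43 and 4.05 CPM in MC-Line3 (log2 fold change -1.04 ± 0.19, edgeR adjusted p = 6.9e-04).

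Abscisic acid signalling and dehydrin genes were lower in 9 of 24 and higher in 6 (median -0.22). The cold-regulated *COR15A* had 9.33 and 10.3 CPM in MA-Line1, against 26.3 and 22.2 CPM in MC-Line3 (log2 fold change -1.30 ± 0.10, edgeR adjusted p = 1.3e-07) and *KIN2* had 14.3 and 15.6 CPM in MA-Line1, against 39.5 and 39.3 CPM in MC-Line3 (log2 fold change -1.40 ± 0.08, edgeR adjusted p = 2.7e-09). Both were high in MC-Line3 relative to MA-Line1 and to Col-0, which had 7.56 and 7.5 CPM for *COR15A* and 24.8 and 21 CPM for *KIN2*. *CYP707A3*, which breaks down abscisic acid, had 18 and 18.5 CPM in MA-Line1, against 7.75 and 6.81 CPM in MC-Line3 (log2 fold change 1.33 ± 0.10, edgeR adjusted p = 1.2e-07), with Col-0 at 27.5 and 33.4 CPM. *SAUR* genes, an auxin-responsive family, had 10 of 65 higher and 8 lower with a median of -0.09, shares near those of all genes.

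A few genes had reads in 1 line and no more than 3 counts in each library of the other, and those named here were chosen after their values were seen. *AT2G06845*, annotated as related to beta-galactosidase, lies on chromosome 2 between positions 2753443 and 2756008 of TAIR10.1. It had 589 and 550 counts in MA-Line1, against 0 and 2 counts in MC-Line3 and 0 and 0 in Col-0. The summed counts per library size were 506-fold higher in MA-Line1, with an exact 95% interval of 139.8 to 4185 that covers counting error only, as do the intervals of the next genes. The nearest tested gene, *XTH4*, starts 7441 bases beyond its end and was lower, with 176.1 and 183.2 CPM in MA-Line1, against 363.2 and 335.2 CPM in MC-Line3. *DXPS1*, of plastid isoprenoid synthesis, had 228 and 143 counts in MA-Line1, against 2 and 1 counts in MC-Line3 and 22 and 24 in Col-0, with a ratio of MA-Line1 over MC-Line3 of 109.9 (37.3 to 535).

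In the other direction, *CYP82C4*, a cytochrome P450 gene of iron-deficient roots, had 1 and 3 counts in MA-Line1, against 57 and 68 counts in MC-Line3 and 8 and 6 in Col-0, so that MC-Line3 over MA-Line1 was 35.2 (13.4 to 131). *EXPB2*, an expansin gene, had 0 and 0 counts in MA-Line1, against 20 and 33 counts in MC-Line3. It was at least 9.81-fold lower in MA-Line1 against a floor of 3 counts per library. Col-0 had 0.155 and 0.0168 CPM at *EXPB2*, below the 0.384 and 0.599 CPM of MC-Line3. *EXPA17* had 2 and 1 counts in MA-Line1, against 12 and 27 counts in MC-Line3 and 28 and 19 in Col-0, with a ratio of MC-Line3 over MA-Line1 of 14.6 (4.65 to 74.0).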

How the data were processed

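RNA of whole seedlings was sequenced as paired-end reads from TruSeq v2 libraries, which do not mark strand. Per the paper, reads were filtered with the FASTX toolkit and Trimmomatic, and the submitters' notes list TopHat2, HTSeq, edgeR and the TAIR10 build. The deposited values are raw counts of reads per gene, as the authors' counting gave them, for 28775 genes in 6 libraries. Of these genes, 4523 had no count in the 4 libraries of the lines.

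The 4 libraries were fitted in R 4.3.3 with edgeR 4.0.16 (TMM scaling, filterByExpr with default settings, a mean per line). The quasi-likelihood test was used with Benjamini-Hochberg adjustment over all genes tested and a threshold of 0.05. SEs were obtained from each log2 fold change and the root of its F value. Names and positions came from TAIR10.1, which held 28009 (97.3%) of the genes. The procedure was tested on simulated counts in which few genes were changed, as many higher as lower. This does not test the share of genes called here.

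The members and gene lists (41, of which 12 by annotation) were chosen with earlier results of these data known, and some genes are in several lists. Of each list, counts of called members and a median are given, with no test of the list. Genes were named by a rule: the 12 largest called differences in each direction with a mean of at least 5 CPM and no overlap, the 4 largest called members of each list with a mean of at least 1 CPM, the genes the study names, and the endogenous ERFVII and PCO genes. Other list members were named for their role or chosen after their values were seen. Copies of 50-base words were searched in the whole genome. Alternatives were other scalings, filters, tests and fits, a replicate block and leaving out each library, with limma 3.58.1 and DESeq2 1.42.0.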

Additional observations from a re-analysis of the deposited data

How the results depend on the processing

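The number of called genes, 6047, lay between 5154 (DESeq2) and 6594 (likelihood ratio test) under other scalings, filters and tests of the 4 libraries, was 5749 with a replicate block (photosynthesis genes lower 22, against 35), and was 4258 with all 6 libraries in the fit, where 1830 genes were called lower against 2811. A test against a 2-fold change (glmTreat in edgeR) called 501 genes, 329 higher and 172 lower, as its threshold is stricter by construction. Leaving out each library in turn gave 4460 to 6660 called genes, 2493 to 3628 higher and 1967 to 3211 lower, with the lone library of a line assumed to vary like the others. Scaling by library size alone moved the median log2 fold change of all genes to 0.034 and the share of called genes that were higher to 60.5%, against 53.5% with TMM. The labels give both lines the replicate numbers 1 and 2, but the deviations of same-numbered replicates correlated at -0.014 between the lines, so the numbers were not taken as pairs, and the block changed the call of none of the 183 named genes. Of these, 168 kept their direction and side of the threshold in 16 settings, glmTreat not among them, and 15 lost their call in at least 1. No direction of a called value was reversed. Called the same way in every setting but glmTreat were 3252 genes (53.8% of those called), 1924 higher and 1328 lower. Lists with more members higher than lower numbered 24 to 28 and those with more lower 12 to 16 when single libraries were left out. Beyond the list counts given with their results, leaving out 1 library moved by over 1.5 times only counts of 0 to 2 called members of a list, each by 1. Without MC-Line3 replicate 1 the median of the *SAUR* list was 0.053, against -0.09. At a mean of at most 2.77 CPM, 19.6% of genes were called, and the part of depth in this share was not tested.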
